A study of Mus musculus with 9 samples.

Results

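The genes described here are 8 genes for the recognition and uptake of apoptotic cells, chosen by name: the receptor tyrosine kinase genes Mertk and Axl, the genes for their ligands, Gas6 and Pros1, the bridge Mfge8, the T cell immunoglobulin and mucin (TIM) genes Havcr2 and Timd4, and the adhesion receptor gene Adgrb1. They were 8 of the 23238 gene symbols with a read count, and all 8 were found. RNA was measured in microglia of 12-week-old female wild-type C57BL/6N mice on day 1, after a sort for surface CD45, CD11b and P2ry12. Each of 3 groups had 3 libraries, and 3 mice were pooled for each library. Normal mice had no treatment. NMO mice were given NMO-IgG, a patient-derived antibody to the astrocyte water channel aquaporin-4, and human complement into the striatum of one hemisphere, which models neuromyelitis optica. The NMO+CL group had the same injection and, 6 h before it, intraperitoneal liposomes loaded with clodronate, a drug that kills the phagocytes that take them up. Control IgG and empty liposomes were not analysed here, so antibody, complement and injection cannot be told apart, nor can clodronate and its carrier.

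Cells that die by apoptosis expose phosphatidylserine on their surface, and phagocytes remove them before they break open, a process called efferocytosis. Some receptors, such as TIM-4 (Timd4), TIM-3 (Havcr2) and BAI1 (Adgrb1), bind the exposed lipid themselves. MERTK and AXL reach it through the soluble bridges GAS6 and protein S (Pros1), and MFG-E8 (Mfge8) links it to integrins. In the brain, microglia are the main resident phagocytes of dying cells. MERTK is the TAM receptor (Tyro3, Axl, Mertk) best known in resting phagocytes, whereas AXL is known for its induction by inflammatory signals.

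The genes were spread over 6 chromosomes of the mouse build GRCm38 (mm10) in the GENCODE M21 annotation. Mertk was on chromosome 2 from 128698956 to 128802894. Axl and Mfge8 were both on chromosome 7, from 25757273 to 25788705 and from 79133768 to 79149060. Gas6 was on chromosome 8 from 13465374 to 13494490, Adgrb1 on chromosome 15 from 74516195 to 74589465 and Pros1 on chromosome 16 from 62854307 to 62929346. The TIM genes lay on chromosome 11, Havcr2 from 46454935 to 46481255 and Timd4 from 46810800 to 46844332, both on the plus strand and 329544 bases apart. No exon of another gene lay within 500 bases of the annotated 3′ end of any of the 8. An exon of Tmem255b on the opposite strand overlapped an internal exon of Gas6, and Tmem255b had 4 counts in 1 library and 0 in the other 8. An exon of Adgrb1 overlapped Gm26117, a miRNA gene on the same strand that was not analysed here, so the few Adgrb1 counts are uncertain.

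Havcr2 and Timd4 are related neighbours, the former with counts in every library and the latter with none. The 250 bases before their starts in RefSeq on GRCm38.p6 are therefore shown, both on the plus strand. The windows are chr11:46454681-46454930 for Havcr2 and chr11:46810549-46810798 for Timd4. Capitals mark GAGGAA, a purine-rich box bound by the myeloid factor PU.1. Only this string is marked. The shorter GGAA occurs in both sequences, so the marking does not tell them apart in PU.1 sites.
Havcr2: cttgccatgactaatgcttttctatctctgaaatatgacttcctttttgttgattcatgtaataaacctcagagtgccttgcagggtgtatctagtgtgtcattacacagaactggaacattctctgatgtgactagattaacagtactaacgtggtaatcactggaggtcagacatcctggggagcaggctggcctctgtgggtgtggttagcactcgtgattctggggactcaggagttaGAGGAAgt
Timd4: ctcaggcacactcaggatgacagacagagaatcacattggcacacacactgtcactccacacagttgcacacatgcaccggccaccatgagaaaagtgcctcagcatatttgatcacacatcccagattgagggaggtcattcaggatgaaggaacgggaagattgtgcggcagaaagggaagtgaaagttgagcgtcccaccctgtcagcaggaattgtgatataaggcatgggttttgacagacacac

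A window of 300 bases, from 250 before to 50 after the start, was matched for 7 of the 8 genes and searched on both strands for 3 motifs, which did not overlap each other. GAGGAA occurred once each in the windows of Axl, Mfge8 and Havcr2, and 28.3% of all 32851 promoter windows held it. The GC box GGGCGG occurred 4 times each for Mertk, Gas6 and Mfge8, 5 times for Pros1 (2 of which shared bases) and 2 times for Axl, and 35.7% of all windows held it. The TATA box TATAAA was in none of the 7 windows and in 13.6% of all windows. Havcr2 and Timd4 had no GC box, and their G+C content was 45.3% and 50.7%, against 58.3% to 66.7% in the other 5 windows. These matches are letters in a window and no measurement of binding.

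Library depth ran from 5788234 to 7837219 counts, and the ribosomal precursor entry Rn45s took 15.98% to 31.0% of them. Levels are given as CPM, counts scaled to a library size of 1000000 after trimmed-mean (TMM) normalization, ± SD between 3 libraries. The summed level of 8 microglia markers was 14796 to 16052 CPM in Normal libraries, 12253 to 13544 in NMO and 6917 to 8358 in NMO+CL, and all 8 were detected. P2ry12, a marker of the sort itself, had 13653 to 16365 counts in Normal libraries, 10178 to 13966 in NMO and 1640 to 3079 in NMO+CL. Markers of neutrophils summed to 41.5 to 530 CPM in Normal libraries, 102 to 379 in NMO and 265 to 1292 in NMO+CL. Those of border macrophages summed to 160 to 308, 10.9 to 190 and 219 to 408 CPM, and those of astrocytes to 173 to 217, 103 to 133 and 85.8 to 127 CPM. Cbr2 carried most of the border macrophage sum, apart from NMO replicate 2, where it was at 0, and Slc1a3 most of the astrocyte sum. Without Cbr2 the border macrophage markers came to 20.02 to 35.5, 10.6 to 31.2 and 12.8 to 33.6 CPM, and without Slc1a3 the astrocyte markers to 13.8 to 30.6, 10.1 to 16.5 and 4.48 to 18.97 CPM. Monocyte markers summed to 23.0 to 53.4, 34.7 to 76.9 and 37.5 to 83.9 CPM, endothelial markers to 74.5 to 110, 49.8 to 95.9 and 82.6 to 122 CPM, oligodendrocyte markers to 84.9 to 137, 73.6 to 100.4 and 35.7 to 68.9 CPM, and neuronal markers to 17.5 to 65.3, 4.31 to 23.2 and 5.02 to 25.3 CPM. Lymphocyte markers summed to at most 7.17 CPM in any library, and Cd3e was at 0 in all 9. In these bulk samples fewer cells of a type and less RNA per cell cannot be told apart.

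The microglia held much RNA for the ligands and little for Axl, and the order of the genes was nearly the same in every library. Pros1 had the highest level, 495 ± 56.1 CPM (SD, n = 9), above 98.5% of the 12292 genes tested. Gas6 followed at 159 ± 55.3 CPM, Havcr2 at 109 ± 17.3, Mertk at 65.0 ± 18.5, Mfge8 at 40.5 ± 18.4 and Axl at 10.9 ± 5.94 CPM. The libraries read transcript ends, so the counts were not divided by length, and the order compares tags per gene. By count, each gene stood above the next in all 9 libraries, apart from 2 neighbours. Gas6 was above Havcr2 in 8 of 9, the exception being NMO+CL replicate 2 with 718 Gas6 and 789 Havcr2 counts. Adgrb1 and Timd4 were separated only by 9 counts in 1 library. In NMO+CL replicate 2 the single Axl count was also not resolved from the 0 of Adgrb1.

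**Figure D1:**
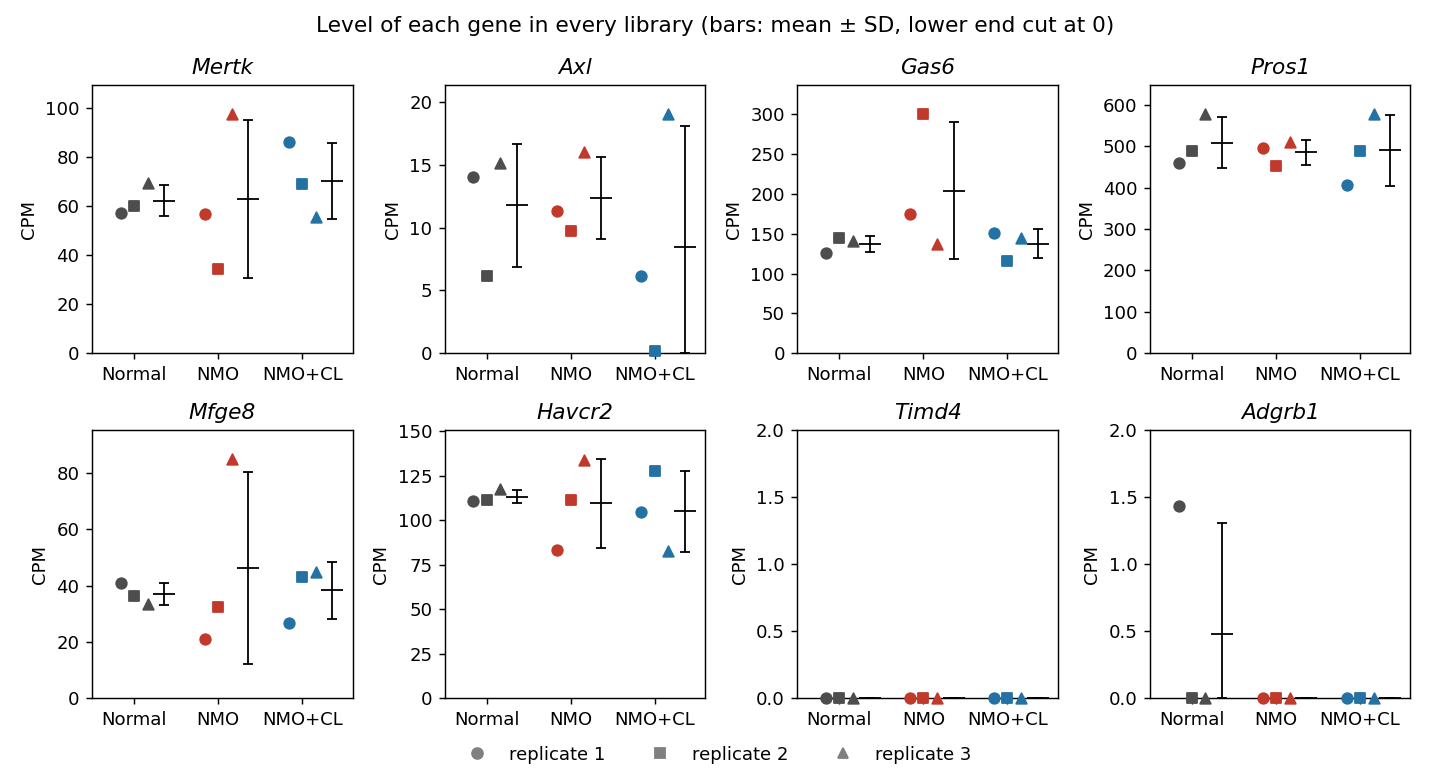
CPM of each of the 8 genes (vertical axis, each from 0 on its own scale) in the 3 Normal, 3 NMO and 3 NMO+CL libraries, with symbols for the replicate numbers and bars for the mean ± SD. The groups overlap for every gene, Gas6 is highest in NMO replicate 2 at 300.5 CPM, Axl is near 0 in NMO+CL replicate 2, and Timd4 is at 0 throughout.

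None of the 6 genes that passed the filter on low counts (Mertk, Axl, Gas6, Pros1, Mfge8 and Havcr2) differed between any 2 groups at an adjusted p under 0.05 in edgeR's quasi-likelihood test. Over all tested genes 0.496% were called in NMO against Normal (0.472% higher and 0.0244% lower), 1.59% in NMO+CL against NMO (0.529% higher and 1.07% lower) and 9.23% between NMO+CL and Normal (4.79% higher and 4.43% lower). At an unadjusted p under 0.05 the count was 1 of 6 in NMO against Normal, 1 in NMO+CL against NMO and 0 between NMO+CL and Normal, where 9.51%, 12.4% and 22.3% of all genes were under that value. limma-voom and the DESeq2 Wald test gave the same counts, with 0 called at an adjusted p under 0.05, and the gene was Gas6 each time. In NMO against Normal the count at an unadjusted p under 0.05 went to 0 without any 1 Normal library or NMO replicate 2. The count in NMO+CL against NMO went to 0 under the replicate block and without NMO replicate 2 or NMO+CL replicate 2, and to 2 without NMO replicate 3 (with Mertk) or NMO+CL replicate 3 (with Axl). In none of the 3 comparisons were the libraries of 2 groups apart for any of the 6, against 17.4%, 17.1% and 28.7% of all tested genes. The median log2 fold change of the 6 was 0.04, -0.16 and -0.02 in that order, and that of all genes was -0.01 in each. Counts out of 6 genes are too small to tell these shares from the background. A p that misses the threshold does not show that levels were equal, so each difference is given below with its 95% interval. Every difference and log2 fold change is that of the group named first relative to the group named second. The comparisons share libraries and are not independent of each other.

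**Figure D2:**
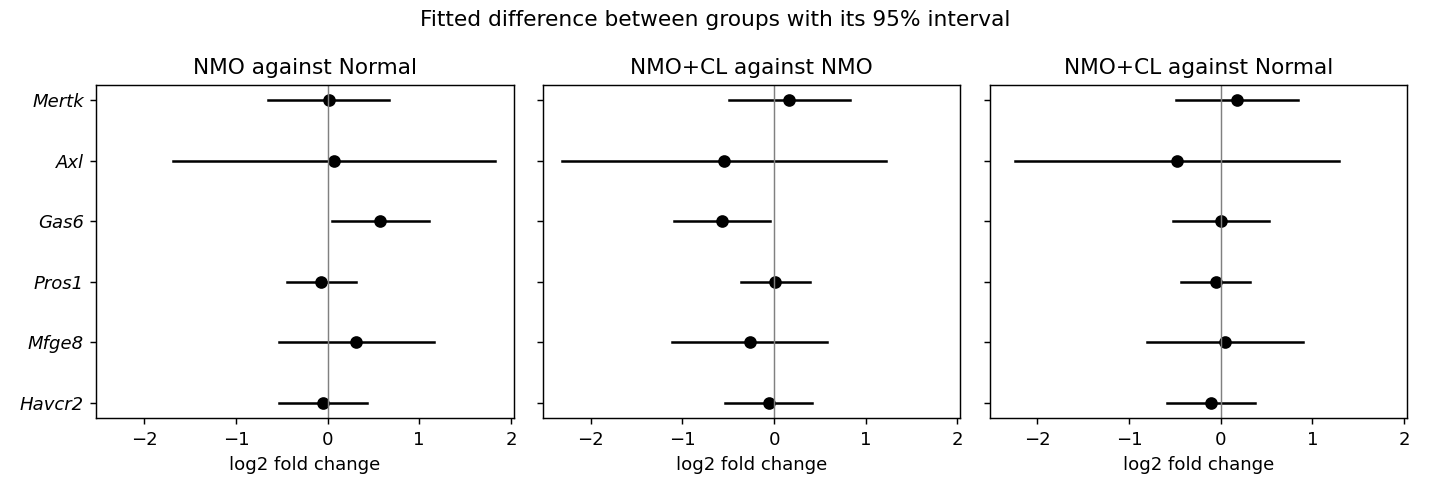
Fitted log2 fold change (dot) and 95% interval (line) of the 6 tested genes in the 3 comparisons. The intervals of Axl are the widest, those of Pros1 the narrowest, and those of Gas6 leave out 0 in the first 2 comparisons, before adjustment over all genes.

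Mertk codes for the TAM receptor that signals for engulfment of cells coated with GAS6 or protein S. Its counts were 359, 397 and 412 in Normal, 451, 286 and 609 in NMO, and 590, 426 and 346 in NMO+CL (replicates 1 to 3 in each list). These were 62.1 ± 6.39, 62.8 ± 32.1 and 70.2 ± 15.4 CPM (SD, n = 3). The 3 Normal libraries lay close together, while the NMO group held both the lowest and the highest library of all 9, at 34.2 and 97.5 CPM. The coefficient of variation was 51.1% in NMO against 10.3% in Normal, and counting error alone would give about 5%. The fitted log2 fold change was 0.01 in NMO against Normal (95% interval -0.65 to 0.67, adjusted p = 0.996). It was 0.16 in NMO+CL against NMO (-0.50 to 0.82, adjusted p = 0.906) and 0.18 between NMO+CL and Normal (-0.48 to 0.84, adjusted p = 0.838), both by edgeR. The interval in NMO against Normal thus reached from 0.639-fold to 1.60-fold. The value turned on NMO replicates 2 and 3, being 0.31 without the former and -0.46 without the latter.

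Axl codes for another TAM receptor, which also binds GAS6. It had 88, 41 and 90 counts in Normal, 90, 81 and 100 in NMO, and 42, 1 and 119 in NMO+CL. The levels were 11.8 ± 4.89, 12.3 ± 3.28 and 8.45 ± 9.66 CPM (SD, n = 3). NMO+CL held both the lowest and the highest library, and the single count in NMO+CL replicate 2 has an exact Poisson interval of 0.0253 to 5.57 counts. Mertk had 426 counts in that same library. The log2 fold change was 0.07 in NMO against Normal (95% interval -1.69 to 1.82, adjusted p = 0.994 by edgeR). In NMO+CL it was -0.54 against NMO (-2.31 to 1.22, adjusted p = 0.873 by edgeR) and -0.48 against Normal (-2.25 to 1.29, adjusted p = 0.836 by edgeR). Without NMO+CL replicate 2 these became 0.03 and 0.10, on the other side of 0, and without NMO+CL replicate 3 they became -1.95 and -1.89. The intervals of Axl leave room for a change of more than 2-fold either way in each comparison.

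Axl counts were a small part of Mertk counts in every library. They came to 24.5%, 10.3% and 21.8% of the Mertk counts in Normal, 19.96%, 28.3% and 16.4% in NMO, and 7.12%, 0.235% and 34.4% in NMO+CL. Mertk led by at least 2.91 times, and its lead was widest in NMO+CL replicate 2. The mean log2 ratio of Axl to Mertk counts, with 0.5 added to each, was -2.49 ± 0.67 in Normal libraries, -2.24 ± 0.40 in NMO and -4.49 ± 3.36 in NMO+CL (SD, n = 3). The difference was 0.25 in NMO against Normal (exact two-sided permutation p = 0.7), -2.25 in NMO+CL against NMO (exact permutation p = 0.4) and -2.004 between NMO+CL and Normal (exact permutation p = 0.5). With 3 libraries against 3 the smallest p that the permutation test can give is 0.1. Without NMO+CL replicate 2 the differences in NMO+CL were -0.42 against NMO and -0.18 against Normal, and without NMO+CL replicate 3 they were -3.73 and -3.48 (exact permutation p = 0.1 each, the smallest possible). Tyro3, the remaining TAM receptor gene, had 12, 0 and 5 counts in Normal, 0 in all NMO libraries, and 0, 9 and 0 in NMO+CL, and did not pass the filter.

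Gas6 codes for the vitamin K-dependent ligand of the TAM receptors. The counts were 786, 960 and 836 in Normal, 1386, 2510 and 857 in NMO, and 1031, 718 and 904 in NMO+CL. Levels were 137 ± 10.2, 204 ± 85.6 and 137 ± 18.3 CPM (SD, n = 3). NMO replicates 1 and 2 lay above all 3 Normal libraries, at 174 and 300.5 CPM, and NMO replicate 3 lay within them at 137. The log2 fold change was 0.58 in NMO against Normal (95% interval 0.05 to 1.10, a fold of 1.04 to 2.15). It had an unadjusted p of 0.0329 and an adjusted p = 0.467 by edgeR over 12292 genes. In NMO+CL against NMO it was -0.57 (-1.10 to -0.05), with an unadjusted p of 0.0340 and an adjusted p = 0.341 by edgeR. NMO+CL and Normal differed by 0.00 (-0.52 to 0.53, adjusted p = 0.996 by edgeR).

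Gas6 in NMO rested on replicate 2. Without that library the log2 fold change was 0.18 in NMO against Normal and -0.18 in NMO+CL against NMO. The library also stood apart in genes that were looked at after their values were seen. It had 0 counts of Cbr2, a border macrophage marker that had 741 to 2467 in the other 8 libraries. Mrc1, another marker of that list, did not stand apart, at 72 counts against 49 to 121. It had 64 counts of the globin gene Hba-a1, against 1522 to 3776 in the others, and 133 counts of Aqp4, against 8 to 74. Other astrocyte markers were not raised there. Slc1a3 had 924 counts, against 458 to 1207, and Gja1, Aldoc, S100b and Gfap had 0. The part of these genes in the Gas6 level was not tested.

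Pros1 codes for protein S, the plasma anticoagulant that also serves as a TAM ligand. Its counts were 2883, 3246 and 3438 in Normal, 3945, 3773 and 3182 in NMO, and 2779, 3013 and 3606 in NMO+CL. These were 509 ± 62.1, 486 ± 30.2 and 490 ± 86.0 CPM (SD, n = 3), and the groups overlapped throughout. The log2 fold change was -0.07 in NMO against Normal (95% interval -0.44 to 0.31, adjusted p = 0.975 by edgeR). It was 0.01 in NMO+CL against NMO (-0.36 to 0.39, adjusted p = 0.993 by edgeR) and -0.05 between NMO+CL and Normal (-0.43 to 0.32, adjusted p = 0.925 by edgeR). These were the narrowest intervals of the 6 genes, and in folds they ran from 0.735 to 1.31 at most.

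Gas6 counts came to 27.3%, 29.6% and 24.3% of Pros1 counts in Normal, to 35.1%, 66.5% and 26.9% in NMO, and to 37.1%, 23.8% and 25.1% in NMO+CL. Pros1 was thus ahead in every library, by 1.503 to 4.20 times. The mean log2 ratio of Gas6 to Pros1 was -1.89 ± 0.14 in Normal libraries, -1.33 ± 0.67 in NMO and -1.83 ± 0.35 in NMO+CL (SD, n = 3). It differed by 0.56 in NMO against Normal (exact two-sided permutation p = 0.3), by -0.50 in NMO+CL against NMO (exact permutation p = 0.3) and by 0.06 in NMO+CL against Normal (exact permutation p = 0.9). Without NMO replicate 2 the first of these was 0.19 and the second -0.13.

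**Figure D3:**
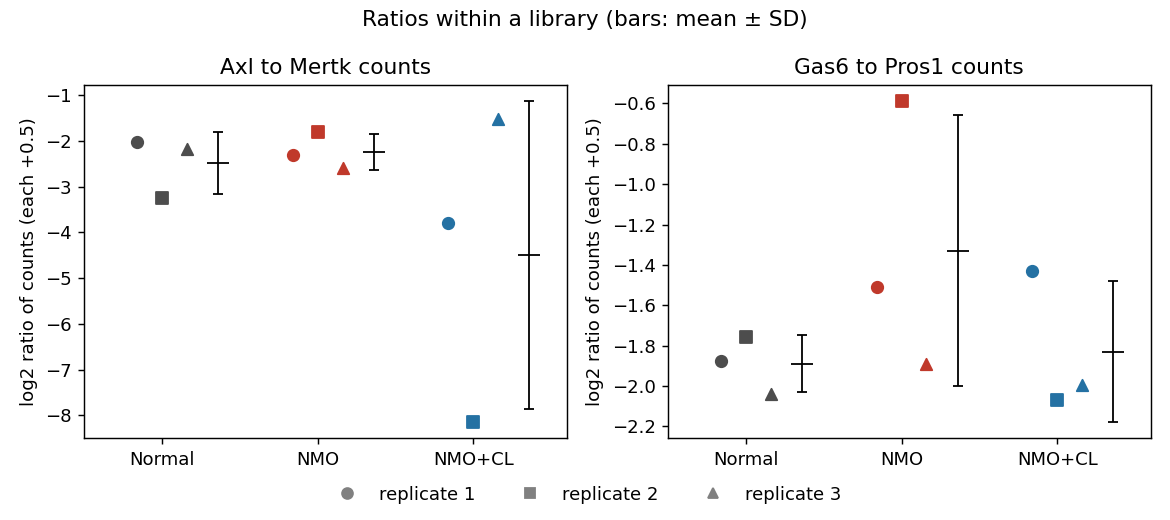
Log2 ratio of Axl to Mertk counts and of Gas6 to Pros1 counts within each library, each count with 0.5 added, and the mean ± SD of each group. All ratios are below 0, NMO+CL replicate 2 has the lowest Axl to Mertk ratio at -8.15, and NMO replicate 2 has the highest Gas6 to Pros1 ratio at -0.59.

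Mfge8 codes for the secreted milk fat globule protein that joins phosphatidylserine to the integrins αvβ3 and αvβ5. It had 258, 242 and 200 counts in Normal, 169, 271 and 531 in NMO, and 184, 267 and 280 in NMO+CL. The levels were 37.1 ± 3.77, 46.2 ± 34.05 and 38.3 ± 9.96 CPM (SD, n = 3). Like Mertk, it had its lowest and its highest library both in NMO, at 21.2 and 85.0 CPM, a 4.001-fold range. The log2 fold change was 0.32 in NMO against Normal (95% interval -0.53 to 1.16, adjusted p = 0.927 by edgeR), and -0.48 without NMO replicate 3. In NMO+CL it was -0.27 against NMO (-1.12 to 0.58, adjusted p = 0.867 by edgeR), 0.53 without NMO replicate 3, and 0.05 against Normal (-0.80 to 0.90, adjusted p = 0.974 by edgeR). The genes for its integrin partners are given with the other receptors.

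Havcr2 codes for TIM-3, an immune checkpoint receptor that also binds phosphatidylserine. Its counts were 696, 739 and 698 in Normal, 665, 929 and 835 in NMO, and 717, 789 and 516 in NMO+CL. Levels were 113 ± 3.69, 110 ± 25.1 and 105 ± 22.6 CPM (SD, n = 3). The Normal libraries varied by 3.26%, under the 3.75% that counting alone would give, while the other groups varied by 22.9% and 21.5%. The log2 fold change was -0.05 in NMO against Normal (95% interval -0.53 to 0.43, adjusted p = 0.989 by edgeR). In NMO+CL it was -0.06 against NMO (-0.54 to 0.42, adjusted p = 0.965 by edgeR) and -0.11 against Normal (-0.59 to 0.37, adjusted p = 0.869 by edgeR).

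Timd4, the TIM-4 gene of tissue macrophages that bind apoptotic cells, had 0 counts in each of the 9 libraries. A count of 0 allows up to 3 counts (a one-sided limit, unlike the two-sided Poisson intervals given for Axl and Adgrb1), or 0.359 to 0.505 CPM depending on the library, for counting error only. The related TIM genes Havcr1 and Timd2 were also at 0 in every library. Havcr2 was thus the TIM gene with counts here, at 516 or more in each library. Timd4 could not be compared between groups.

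Adgrb1 codes for BAI1, a receptor that passes the uptake signal to ELMO1 and DOCK1. It had 9 counts in Normal replicate 1 (exact Poisson interval 4.12 to 17.1 counts, 1.43 CPM) and 0 in the other 8 libraries, and it was not tested for a difference. Its relative Adgrb3 had 24 counts in Normal replicate 1, 7 in NMO+CL replicate 1 and 0 elsewhere. Normal replicate 1 also had the most neuronal marker counts, 410 over 8 genes with 7 detected, against 31 to 158 in the other libraries. It had 1065 counts of the neuronal RNA Meg3, against 31 to 123. The part of neuronal RNA in the Adgrb1 counts was not tested.

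The genes most like each member across the 9 libraries, by Pearson's r of log2 CPM among 8841 genes with a mean of at least 50 counts, were not other genes of this group. For Mertk they were Hba-a2 (r = 0.96), Chchd7 (r = 0.92) and Zfp580 (r = 0.90). Hba-a2 is an α-globin gene of red cells. It had 6 counts in NMO replicate 2 and 377 in NMO replicate 3, the libraries with the lowest and the highest Mertk. Hba-a1, also an α-globin gene, was lowest in NMO replicate 2 at 7.66 CPM. It was highest in NMO+CL replicate 2 at 612 CPM, where Mertk was at 69.0 CPM. In NMO replicate 3 Hba-a1 was at 387 CPM. The part of either globin gene in the Mertk level was not tested. For Axl they were Fahd1 (r = 0.97), Phyh (r = 0.94) and Dock9 (r = 0.94), and Fahd1 had 3 counts in NMO+CL replicate 2 against 37 to 90 elsewhere. For Gas6 they were Lcp2, a signalling adaptor (r = 0.91), Prkdc (r = 0.91) and Pea15a (r = 0.89). For Pros1 they were Med16 (r = 0.94), Sh3bp5 (r = 0.93) and Chd3 (r = 0.92), and for Mfge8 Phf13 (r = 0.93), Psmd8 (r = 0.90) and Gpr137 (r = 0.90). For Havcr2 they were Eepd1 (r = 0.99) and the autophagy genes Atg13 (r = 0.98) and Atg101 (r = 0.94). Values of 1 library share its cells, depth and scaling, and these are the highest of many correlations over 9 points.

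Of 89 other genes of apoptotic cell uptake, 88 were found and 74 passed the filter. None was called in NMO against Normal by the main edgeR fit, with 5 at an unadjusted p under 0.05. The DESeq2 Wald test called 2, Cd300lf and P2ry2, and so did edgeR with no low-count filter (adjusted p = 0.000828 and 0.0105). edgeR called P2ry2 without NMO replicate 3 (adjusted p = 0.0332). In NMO+CL against NMO 4 were called (2 higher and 2 lower, 5.41%), and in NMO+CL against Normal 13 (6 higher and 7 lower, 17.6%). The shares over all genes were 0.496%, 1.59% and 9.23%. The counts by role below, of 4 to 13 tested genes each, are to be read beside these shares. The median log2 fold change of the 74 was -0.03, -0.04 and -0.04, against -0.01 over all genes in each comparison. In NMO+CL, microglia marker and P2ry12 levels were lower and the mean of the neutrophil marker sum was higher. That mean was 686 ± 538 CPM, against 206 ± 281 in Normal and 245 ± 139 in NMO. Its single libraries overlapped, with 530 CPM in Normal replicate 1 and 265 and 500 in NMO+CL replicates 2 and 3. The part of these marker levels in the calls was not tested.

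Among the other uptake receptors, 3 of 11 tested genes were called in NMO+CL against Normal. Cd300lf, a phosphatidylserine-binding receptor of myeloid cells, had 0.956, 2.71 and 3.03 CPM in Normal, 11.2, 6.94 and 3.84 in NMO, and 74.9, 205 and 111 in NMO+CL. All NMO+CL libraries were above all others, and the log2 fold change was 5.86 against Normal (SE 0.52, adjusted p = 4.18e-06) and 4.14 against NMO (SE 0.46, adjusted p = 0.000218, both edgeR). Trem2, a lipid-sensing receptor of microglia, fell from 841 ± 41.1 CPM in Normal to 445 ± 39.4 in NMO+CL, a log2 fold change of -0.92 (adjusted p = 0.00165 by edgeR). Against NMO it was called in NMO+CL by limma-voom (-0.60, adjusted p = 0.0448) and the DESeq2 Wald test (-0.58, adjusted p = 0.00690) and not by edgeR. Stab1, a scavenger receptor for phosphatidylserine, rose from 171 ± 23.6 to 290 ± 86.5 CPM (0.76, adjusted p = 0.0360 by edgeR). The Stab1 call was lost without any 1 of the Normal libraries or NMO+CL replicate 2, with adjusted p from 0.0637 to 0.239. The most abundant of the list after Trem2 by the mean over all 9 libraries, and ahead of it in NMO+CL, was Itgb5, the β5 integrin partner for MFG-E8, at 741 ± 115 CPM in Normal libraries, 618 ± 139 in NMO and 561 ± 52.0 in NMO+CL, which was not called. Itgb3 (69.7, 68.3 and 43.4 CPM) and Itgav (71.3, 76.4 and 71.6 CPM), which code for the other integrin chains, were not called by edgeR either, though Itgb3 was in NMO+CL against Normal without NMO+CL replicate 3 (adjusted p = 0.0474). The same fit called Cd300a, an inhibitory receptor, against Normal (-1.59, adjusted p = 0.0118) and against NMO (-1.63, adjusted p = 0.0377, both edgeR). Cd36, a scavenger receptor, was called in NMO+CL against NMO without NMO replicate 3 (4.91, adjusted p = 0.0266 by edgeR).

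Of the other bridges and ligand processing genes, C1qc and C1qa, chains of the complement opsonin C1q, had the highest levels, 3650 and 3536 CPM over all libraries, and neither was called. Calr, which codes for calreticulin, rose in NMO+CL against Normal from 1118 ± 138 to 1627 ± 203 CPM, a log2 fold change of 0.54 (adjusted p = 0.0424 by edgeR). That call was lost without any 1 of 6 libraries (each Normal library, NMO replicate 1, NMO+CL replicates 2 and 3), with adjusted p from 0.0695 to 0.188, and with no low-count filter (adjusted p = 0.0508 by edgeR). Ggcx and Vkorc1, the vitamin K enzymes that modify GAS6 and protein S, had 78.6 and 67.7 CPM over all libraries and were not called. This made 1 of 10 tested genes of this role called by edgeR. Other settings called Calr in NMO+CL against NMO (limma-voom, adjusted p = 0.0437, and DESeq2, adjusted p = 0.00374), C1qb in the same comparison (DESeq2, adjusted p = 0.0342), and Lgals3 in NMO+CL against Normal without Normal replicate 1 (edgeR, adjusted p = 0.0254).

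Both genes of the CD47 to SIRPα pair, by which live cells restrain their own uptake, were called lower in NMO+CL against Normal, Cd47 less firmly. Sirpa, the receptor on the phagocyte, went from 1649 ± 321 CPM in Normal and 1422 ± 146 in NMO to 682 ± 2.80 in NMO+CL. Its log2 fold change was -1.27 against Normal (adjusted p = 0.000139) and -1.06 against NMO (adjusted p = 0.00393, both edgeR). Cd47 went from 164 ± 68.0 to 62.9 ± 19.3 CPM (-1.39, adjusted p = 0.0385 by edgeR), and this call was lost without Normal replicate 1 or 3 or NMO+CL replicate 1 or 3, with adjusted p from 0.0876 to 0.212. It was also lost by the DESeq2 Wald test (adjusted p = 0.0949) and with library totals alone (adjusted p = 0.0539 by edgeR). Tmem30a, a subunit of the flippases that hold phosphatidylserine inside, was next in abundance at 142 CPM over all libraries and was not called. Of 8 tested genes 2 were called.

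In the engulfment machinery 1 of 13 tested genes (7.69%) was called in NMO+CL against Normal, where 9.23% of all genes were. Elmo1, which acts with a DOCK protein to activate RAC, had 128, 120 and 144 CPM in Normal, 92.2, 109 and 82.9 in NMO, and 32.7, 34.3 and 32.8 in NMO+CL. The 3 groups did not overlap, and the log2 fold change was -1.97 in NMO+CL against Normal (adjusted p = 2.56e-05) and -1.51 against NMO (adjusted p = 0.00181, both edgeR). Rac1 and Wasf2, which drive actin assembly, had the highest levels, 486 and 376 CPM over all libraries, and were not called. In phagosome maturation and LC3-associated phagocytosis none of 12 tested genes was called by edgeR, with 2 at an unadjusted p under 0.05 in NMO+CL against Normal, and the DESeq2 Wald test called 1, Lamp2. The highest levels there were those of the lysosomal membrane genes Lamp1 and Lamp2, 865 and 405 CPM.

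Among genes of lipid sensing and efflux after uptake, 2 of 9 were called in NMO+CL against Normal, in opposite directions. Ucp2, a mitochondrial carrier, rose from 61.5 ± 11.8 to 137 ± 34.9 CPM, a log2 fold change of 1.16 (adjusted p = 0.00425 by edgeR). Against NMO it rose by 0.96 (adjusted p = 0.0484 by edgeR), a call lost in 8 of 9 fits that left out 1 library, with NMO+CL replicate 1 the exception and adjusted p from 0.0598 to 0.288. It was also lost with library totals alone (adjusted p = 0.0846) and under the replicate block (adjusted p = 0.0708, both edgeR). Abcg1, a cholesterol exporter, fell from 116 ± 27.3 to 49.7 ± 22.0 CPM (-1.21, adjusted p = 0.0171 by edgeR), a call lost without Normal replicate 1 or 3, with adjusted p of 0.0650 and 0.0852. In NMO+CL against NMO it was called only with no low-count filter (-0.86, adjusted p = 0.0281 by edgeR). Abca1, its partner in cholesterol efflux, and Mylip, an LXR target, had the highest levels, 308 and 304 CPM, and were not called.

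Of the genes for TAM shedding and feedback 1 of 7 was called. Socs3, an inhibitor of cytokine signalling, rose from 153 ± 39.4 CPM in Normal to 345 ± 52.2 in NMO+CL, a log2 fold change of 1.17 (adjusted p = 0.0108 by edgeR), a call lost without Normal replicate 1 or 2, with adjusted p of 0.0597 and 0.0644. Adam10, a sheddase, and Ifnar2, a chain of the type I interferon receptor, had the highest means over all 9 libraries, 295 and 272 CPM, and were not called, while Socs3 was above both in NMO+CL. Adam17, the protease that sheds MERTK, had group means of 217, 198 and 186 CPM in the order Normal, NMO, NMO+CL and was not called.

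Receptors for find-me signals, which dying cells release to draw phagocytes, had 3 of 4 tested genes called in NMO+CL against Normal. Cx3cr1, the fractalkine receptor of microglia, had the highest level of the whole list and fell from 11833 ± 963 to 8157 ± 1645 CPM, a log2 fold change of -0.54 (adjusted p = 0.0378 by edgeR). Its call was lost without any 1 of 6 libraries (each Normal library, NMO replicate 1, NMO+CL replicates 1 and 2), with adjusted p from 0.0639 to 0.162, and with library totals alone (adjusted p = 0.110 by edgeR). In NMO+CL against NMO Cx3cr1 was called only without NMO+CL replicate 3 (-0.62, adjusted p = 0.0434 by edgeR). S1pr1, a receptor for sphingosine-1-phosphate, fell from 67.0 ± 5.53 CPM in Normal to 15.3 ± 7.43 in NMO+CL (-2.13, adjusted p = 0.00142 by edgeR). Against NMO it was called only with no low-count filter (-1.12, adjusted p = 0.0367 by edgeR). P2ry2, a nucleotide receptor, had 0 counts in all Normal libraries, 28, 20 and 0 in NMO, and 44, 94 and 113 in NMO+CL (adjusted p = 0.00400 by edgeR). Against the mean level that 3 counts give per Normal library, its NMO+CL mean of 13.2 CPM was at least 27.7-fold higher. P2ry6, which binds UDP and had the next highest level, was at 133, 167 and 212 CPM and was not called by edgeR. In NMO+CL against Normal it was called by the DESeq2 Wald test (adjusted p = 0.0268), with no low-count filter (adjusted p = 0.0332) and without NMO+CL replicate 1 (adjusted p = 0.0333), the last 2 by edgeR.

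**Figure D4:**
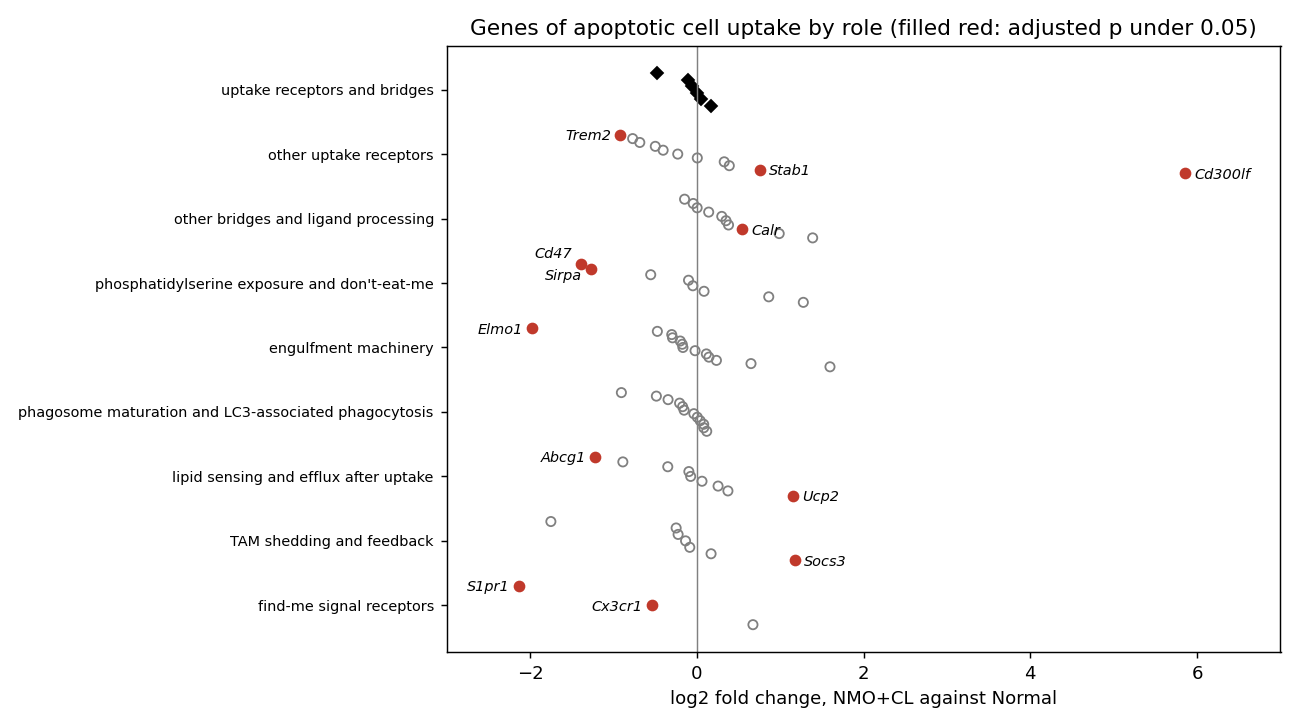
Log2 fold change in NMO+CL against Normal of the 6 tested uptake receptors and bridges (black diamonds, top row) and of 73 of the 74 other tested genes by role, filled red where the adjusted p was under 0.05. P2ry2, at 0 in Normal, is left out, and the 6 lie between -0.48 and 0.18 with none called, while genes such as Cd300lf at 5.86 and S1pr1 at -2.13 lie outside that range.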

How the data were processed

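The authors sequenced QuantSeq 3′ libraries as single 75-base reads, aligned them with Bowtie2 (build mm10 per the labels) and counted unique and multiple alignments per gene with bedtools. The deposited values are these read counts, whole numbers before normalization. The annotation and use of strand were not given in the sources used here. The 35 symbols that occurred more than once were summed, and no member was among them.

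Counts were analysed with edgeR 4.0.16 in R 4.3.3 (quasi-likelihood F-tests, two-sided, all 9 libraries, 1 coefficient per group, TMM scaling). Low genes were dropped by filterByExpr (count at least 10, total at least 15), leaving 12292. Adjustment followed Benjamini and Hochberg across these genes, with calls at an adjusted p under 0.05. The authors describe the 3 libraries of a group as independent biological replicates, each from pooled mice. They do not say that pools came from separate experiments, so p-values measure only the spread between these libraries. Alternatives were DESeq2 1.42.0, limma-voom (limma 3.58.1), other scalings, no filter, a replicate block and leaving out each library. Ratios of counts within a library, with 0.5 added, were compared by exact permutation.

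Same-numbered libraries correlated at -0.0148 to 0.0302 after removal of group means, so numbers were not treated as pairs. Replicate numbers are those of the labels, which differ by 1 throughout from numbers in the names of the deposited files, so that both give the same pairs. No 2 libraries of a group agreed within counting noise. Positions are from GENCODE M21, and promoter sequences from RefSeq (GRCm38.p6).

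The 8 genes, the other uptake genes and the markers were chosen with earlier results of these data known. Named were all members, every other uptake gene called in any comparison by the main edgeR fit, the 2 most abundant genes of each role, and the 3 genes most correlated with each tested member. Genes outside these rules were chosen after their values were seen.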

Additional observations from a re-analysis of the deposited data

How the results depend on the processing

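No member was called in any comparison under any of 15 alternatives, and the lowest adjusted p among them was 0.154. Of 270 recomputed member values 234 kept their direction and 36 changed it, 3 of the 18 member differences never did, and no called value was among them. For NMO against Normal, limma-voom gave Mertk -0.15, library totals alone gave Pros1 0.030 and Havcr2 0.057, and the replicate block gave Mertk -0.055. For NMO+CL against NMO, library totals alone gave Pros1 -0.029, the replicate block Pros1 -0.00018, and limma-voom Mfge8 0.00045. For NMO+CL against Normal, limma-voom gave Gas6 -0.00027, library totals alone Pros1 0.0015, and the replicate block Mfge8 -0.039. The cause was not tested.

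The other uptake genes called in NMO against Normal were 2 with no low-count filter and 2 with DESeq2, against 0. Those in NMO+CL against NMO were 7 with DESeq2, against 4. All genes called in NMO against Normal were 96 with library totals alone, 223 without the filter and 222 with DESeq2, against 61, and in NMO+CL against NMO 496 and 465 by the last 2, against 196. The replicate block, on numbers that do not pair the libraries, called 0 members in each comparison.

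Leaving out 1 library at a time, all genes called ranged from 20 to 75 in NMO against Normal, 51 to 231 in NMO+CL against NMO and 649 to 1263 in NMO+CL against Normal, and the other uptake genes called from 0 to 1, 3 to 5 and 8 to 13. Log2 fold changes in NMO against Normal ranged from -0.46 to 0.31 for Mertk, -0.24 to 0.28 for Axl, 0.18 to 0.78 for Gas6, -0.14 to 0.019 for Pros1, -0.48 to 0.65 for Mfge8 and -0.23 to 0.10 for Havcr2. In NMO+CL against NMO they ranged from -0.13 to 0.64 for Mertk, -1.95 to 0.028 for Axl, -0.78 to -0.18 for Gas6, -0.12 to 0.13 for Pros1, -0.60 to 0.53 for Mfge8 and -0.23 to 0.12 for Havcr2. In NMO+CL against Normal they ranged from 0.0040 to 0.32 for Mertk, -1.89 to 0.10 for Axl, -0.067 to 0.11 for Gas6, -0.19 to 0.067 for Pros1, -0.080 to 0.25 for Mfge8 and -0.27 to 0.039 for Havcr2. The differences in log2 ratio of Axl to Mertk ranged from -0.14 to 0.48 in NMO against Normal, -3.73 to -0.42 in NMO+CL against NMO and -3.48 to -0.18 in NMO+CL against Normal, and those of Gas6 to Pros1 from 0.19 to 0.84, -0.78 to -0.13 and -0.14 to 0.18. Where a group was left with 2 libraries, they were taken to vary like the other groups.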
